A study of Mus musculus with 16 samples.

Results

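Thy1+ cells sorted from mouse brain as neurons were set against the unsorted input of the same animals, across all protein-coding genes of the deposited count table. The comparison used the 4 libraries labelled Neurons and the 4 labelled Input, which is 8 of the 16 libraries of the series. Of 22058 protein-coding genes in the table, 9091 had enough counts to be tested. Genes known from neurons and genes known from lymphocytes were described apart, because Thy1 is carried by both kinds of cell.

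All animals were untreated wildtype male C57BL/6 mice, and the labels give no age. Whole brains were taken after perfusion with saline and dissociated with an enzyme kit for adult brain, and live cells were sorted for Thy1 (neurons), CD11b (microglia) or EAAT2 (astrocytes), with O1+ and CD31+ cells gated out. The antibodies that the labels list for this sort are to CD11b, CD31, O1, Thy1 and EAAT2, so that the panel names no antigen specific to T, NK or B cells. The input is labelled pooled in its title, without a statement of the step of the preparation it stands for. Animals 2, 3, 4 and 5 gave 1 library to each group, and a library is named below by its group and its animal, so that neurons 2 and input 2 come from the same mouse.

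Thy1 is a small surface glycoprotein held in the membrane by a lipid anchor. In the mouse it is found on many projection neurons of the brain and on T cells, and also on some innate lymphocytes, so that an antibody to it can stain both neurons and lymphocytes. Neurons are known by the machinery of the synapse, by their ion channels and by the transporters and enzymes of their transmitter. T cells are known by the CD3 and T cell receptor complex with the kinases and adaptors downstream of it, and NK and cytotoxic T cells by granule proteins such as granzymes and perforin.

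Of the genes that were higher in neurons than in input, 3 neuronal and 3 lymphocyte genes, chosen as examples, are shown by the sequence just before their start, to give the 2 kinds of gene side by side. Slc17a7 encodes the vesicular glutamate transporter of cortical and hippocampal neurons, Tbr1 a transcription factor of glutamatergic neurons, and Chgb a granin of dense core vesicles. Lat encodes the adaptor that links the T cell receptor to its downstream enzymes, Cd3d a chain of the CD3 complex, and Ms4a4b a membrane protein of T and NK cells. Each sequence is the 250 bases before the RefSeq start on GRCm38.p6, written 5′ to 3′ along the strand of the gene, for Slc17a7 at chr7:45163671-45163920 (plus strand), Tbr1 at chr2:61804203-61804452 (plus), Chgb at chr2:132781392-132781641 (plus), Lat at chr7:126369569-126369818 (minus), Cd3d at chr9:44981536-44981785 (plus) and Ms4a4b at chr19:11443308-11443557 (plus). Capitals mark matches, on either strand, to the GC box GGGCGG, the cAMP response element TGACGTCA and the ETS core GGAAGT.
Slc17a7: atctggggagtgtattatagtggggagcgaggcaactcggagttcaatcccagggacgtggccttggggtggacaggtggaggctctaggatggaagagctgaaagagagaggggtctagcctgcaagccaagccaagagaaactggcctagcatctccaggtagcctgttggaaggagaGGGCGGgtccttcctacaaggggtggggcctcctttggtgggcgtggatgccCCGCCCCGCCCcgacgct
Tbr1: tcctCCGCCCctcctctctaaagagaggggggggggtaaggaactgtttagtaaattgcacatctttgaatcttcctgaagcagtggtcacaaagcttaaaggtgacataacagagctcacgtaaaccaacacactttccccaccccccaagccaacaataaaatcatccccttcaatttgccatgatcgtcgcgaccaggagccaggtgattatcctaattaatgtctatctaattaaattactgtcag
Chgb: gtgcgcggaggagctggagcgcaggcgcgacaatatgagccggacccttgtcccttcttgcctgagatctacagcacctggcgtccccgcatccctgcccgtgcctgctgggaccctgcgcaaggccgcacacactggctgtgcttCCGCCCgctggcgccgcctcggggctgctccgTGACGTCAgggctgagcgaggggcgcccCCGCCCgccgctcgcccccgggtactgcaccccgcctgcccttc
Lat: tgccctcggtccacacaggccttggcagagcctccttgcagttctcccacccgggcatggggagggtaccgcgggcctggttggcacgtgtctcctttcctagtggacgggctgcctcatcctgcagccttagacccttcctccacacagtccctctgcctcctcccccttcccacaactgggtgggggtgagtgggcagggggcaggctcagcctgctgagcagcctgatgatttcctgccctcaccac
Cd3d: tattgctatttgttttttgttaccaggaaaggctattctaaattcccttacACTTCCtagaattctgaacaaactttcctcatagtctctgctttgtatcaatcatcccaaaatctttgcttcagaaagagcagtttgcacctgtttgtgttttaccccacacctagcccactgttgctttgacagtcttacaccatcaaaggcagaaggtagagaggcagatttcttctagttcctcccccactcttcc
Ms4a4b: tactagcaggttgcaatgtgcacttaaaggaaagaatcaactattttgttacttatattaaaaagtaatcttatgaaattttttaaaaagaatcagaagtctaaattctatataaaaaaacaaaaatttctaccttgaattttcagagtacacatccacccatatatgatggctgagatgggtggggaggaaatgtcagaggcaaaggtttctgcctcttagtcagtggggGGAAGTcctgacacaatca
The windows of Slc17a7, Tbr1 and Chgb held 9, 5 and 26 CpG dinucleotides, and those of Lat, Cd3d and Ms4a4b held 6, 0 and 0, where the median over 32841 windows of the same length was 6. The GC box was found 3 times in Slc17a7, where 2 of the matches overlap, 1 time in Tbr1 and 2 times in Chgb. It is in 32.7% of all windows. Chgb held 1 cAMP response element, a motif in 1.55% of windows. Cd3d and Ms4a4b each held 1 ETS core, in 19.7% of windows, and the RUNX core TGTGGT, in 14.0% of windows, was in none of the 6. These matches are letters in a window and say nothing of binding.

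Depth differed between the groups. Neuron libraries held 116761, 393199, 198223 and 292052 counts in animals 2 to 5, against 1702665 to 2811080 counts in the input. Genes detected numbered 11640 ± 1301 in neurons and 15036 ± 163 in the input (SD, n = 4 each). Between pairs of libraries, log2 CPM correlated across genes at 0.617 to 0.802 within neurons, 0.958 to 0.976 within the input and 0.621 to 0.730 between both, where genes are not independent replicates. Values below are CPM, counts divided by TMM-scaled library sizes in units of 1e+06 counts, and counts at the 3′ end do not allow levels to be compared between genes. In bulk RNA, fewer cells of a type and less RNA per cell cannot be told apart.

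The antigen of the gate and the markers of neurons checked the labels. Thy1 (ENSMUSG00000032011, chromosome 9 from 44043384 to 44048579 on GRCm38.p6, plus strand) was measured at 188, 250.1, 262 and 254 CPM in neurons 2, 3, 4 and 5, against 28.95, 46.6, 27.1 and 35.9 CPM in input 2, 3, 4 and 5. Per-library values are given in this order of animals throughout. Celf4, an RNA-binding protein of excitatory neurons, was at 513, 975, 553 and 516 CPM in neurons, against 114, 163, 97.1 and 173 CPM in input. Every neuron library lay above every input library for both genes, with neurons 2 lowest for Thy1 and neurons 3 far above the rest for Celf4. Snap25, a SNARE protein of synaptic vesicle fusion, was at 735, 650.2, 317 and 447 CPM in neurons and 139, 179.9, 112 and 186 CPM in input, again without overlap. Pecam1, which encodes CD31, averaged 35.9 ± 16.4 CPM in neurons, against 147 ± 16.5 CPM in input (SD, n = 4 each). Ugt8a, whose enzyme makes the lipid that O1 stains, averaged 51.5 ± 10.9 CPM in neurons, against 200.4 ± 56.6 CPM in input. Both fell, by 2.05 and 2.02 on the log2 scale (edgeR's quasi-likelihood test, adjusted p = 5.75e-05 and 2.34e-04). The genes of the other antigens of the sort, Itgam for CD11b and Slc1a2 for EAAT2, overlapped between the groups and did not pass. Their values are given below with the microglia and astrocyte lists.

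Across all genes tested, 1020 were higher in neurons and 1244 lower, at an adjusted p under 0.05 (edgeR's quasi-likelihood test with Benjamini-Hochberg adjustment over 9091 genes). That is 11.2% of the genes tested in the higher direction and 13.7% in the lower, 24.9% in all. In 865 genes (9.51%) every neuron library lay above every input library, and in 1731 (19%) every one lay below. The median log2 fold change of all genes tested was -0.11 under TMM, 0.04 under RLE scaling and -0.25 with library totals alone, and higher genes made up 45.1%, 58.5% and 34.9% of those past the threshold. Fitted changes below are under TMM. Without neurons 3 the count of lower genes was 799, and without all libraries of animal 5 it was 683.

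Neuronal genes and lymphocyte genes were both higher in neurons. Of 163 tested genes of the neuronal lists, 95 rose, 8 fell and 60 did not pass the test, with a median log2 fold change of 1.25. Of 39 tested genes of the lymphocyte lists, 30 rose, none fell and 9 did not pass, with a median of 3.86. Here and in each list over input described with none in a direction, edgeR gave 0 members in that direction at an unadjusted p under 0.05 as well, and DESeq2 gave 0. By DESeq2, 94 of the same neuronal genes rose and 3 fell, and 32 of the lymphocyte genes rose. In settings added after the data had been seen, 48 neuronal and 6 lymphocyte genes rose with all libraries thinned to 116761 counts, and 33 and 26 in a test against a 2-fold change. With no filter on low counts 64 lymphocyte genes rose. The genes tested in all numbered 3812 after thinning and 16540 with no filter. The shares that rose, 58.3% and 76.9%, stand beside 11.2% of all genes tested. The lymphocyte share and the medians of the lymphocyte lists are descriptions only: 59 of the 98 lymphocyte genes in the table had too few counts to be tested, and a gene rare in the input could enter the test only through the neuron libraries. Summed over tested and untested genes, the lymphocyte lists held 7329.5, 6872, 8779 and 3823 CPM in neurons 2 to 5, against 2267, 3111, 2321 and 2649 CPM in input. The neuronal lists held 24799, 35878, 22715 and 30338 CPM in neurons, against 12697, 14386, 12092 and 15351 CPM in input. Ratios of neurons over input were taken on CPM summed over the tested genes alone. In animals 2 to 5 they were 2.95, 1.96, 3.49 and 1.31 for lymphocyte genes. For neuronal genes they were 1.96, 2.49, 1.87 and 2.03, so that the ranges of both overlapped. Both sums over tested and untested genes were higher in the neuron library of each of the 4 animals, and that lymphocyte sum was lowest in neurons 5. S1pr1, a lymphocyte receptor that astrocytes and endothelium also express, gave 1025, 425, 1056 and 258 CPM of that sum in neurons, against 652, 1133, 613 and 867 CPM in input. Id2, which astrocytes also express, is part of the sum too. The lymphocyte sum averaged 7981 ± 1258 CPM in astrocyte libraries and 6701 ± 2084 CPM in neurons (SD, n = 4 each). It therefore does not measure lymphocytes alone, and neither do the ratios over tested genes.

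Most genes of both kinds lay on the same side in each animal. Of the 163 neuronal genes, 116, 140, 120 and 121 were higher in the neuron library than in the input of the same animal, in animals 2, 3, 4 and 5, and 85 (52.1%) were higher in all of them. Of the 39 lymphocyte genes, 36, 34, 36 and 31 were higher, and 30 (76.9%) in all of them. Over all 9091 genes, 39.7%, 44.5%, 43.2% and 41.8% were higher in animals 2, 3, 4 and 5, and 1211 (13.3%) in all of them. Among the 50 genes with the largest fitted increase, 20 were in the lymphocyte lists, 2 in the neuronal lists, 1 among genes of leukocytes at large, 5 in other lists and 22 in no list. For genes of both kinds these shares and ranks are descriptions only, since one rare in the input could enter the test only through libraries of a sorted group where it was higher.

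**Figure D1:**
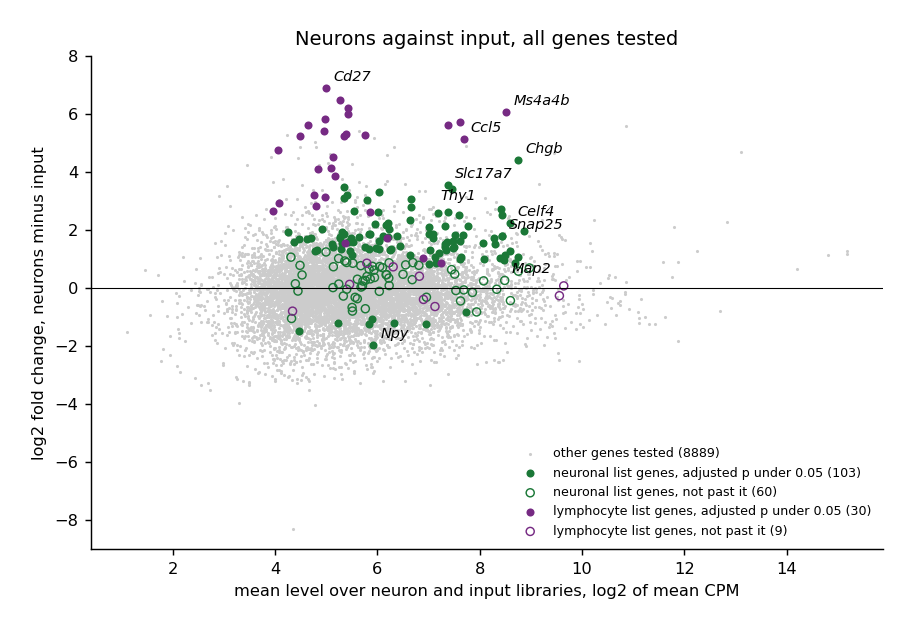
Fitted log2 fold change, neurons minus input (vertical axis), against the log2 of the mean CPM over the 8 libraries (horizontal axis), for the 9091 genes tested; each point is a gene, green for the neuronal lists, purple for the lymphocyte lists and grey for all others, filled where the adjusted p is under 0.05. Lymphocyte genes such as Cd27 and Ms4a4b lie above 6, neuronal genes mostly between 0 and 4, and Npy lies near -2.

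Genes expressed across most neurons rose in 21 of 26 tested members and fell in none, with a median of 1.44, where 11.2% of all genes tested rose. Each count of list members over input below is to be read beside these shares of all genes tested, 11.2% higher and 13.7% lower. In each list the most abundant members are named by a fixed rule, and further members, chosen with their values known, stand as examples. Rbfox3 encodes the nuclear splicing factor NeuN. It was at 145, 400.1, 267 and 327 CPM in neurons, against 48.9, 39.97, 43.4 and 57.8 CPM in input, a log2 fold change of 2.62 ± 0.32 (standard error, adjusted p = 4.20e-07). Ndrg4, a cytoplasmic protein of neurons, was at 513, 925, 413 and 516 CPM in neurons, against 122, 117, 81.8 and 99.1 CPM in input (2.51 ± 0.27, adjusted p = 6.14e-08). Neither gene overlapped between the groups. Map2, the microtubule-associated protein of dendrites, did not pass the test at 444, 450.2, 297 and 378 CPM in neurons, against 265, 399.7, 250.4 and 388 CPM in input (0.27 ± 0.27, adjusted p = 0.509). Its groups overlapped, since input 3 and input 5 lay above neurons 4 and 5. Elavl2, Ina and Syt4 did not pass the test.

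Genes of vesicle release rose in 14 of 20 tested members, with a median of 1.25, and none fell. Cplx2, which clamps the SNARE complex before calcium entry, was at 461, 325, 206 and 299 CPM in neurons, against 26.9, 30.6, 21.5 and 38.4 CPM in input (3.43 ± 0.37, adjusted p = 6.52e-08). Bsn, the scaffold Bassoon of the active zone, was at 145, 100, 75.5 and 75.6 CPM in neurons, against 8.97, 9.66, 10.7 and 16.9 CPM in input (3.04 ± 0.39, adjusted p = 8.68e-07). Vamp2, the SNARE protein of the vesicle, was at 128, 350.1, 267 and 296 CPM in neurons, against 44.9, 66.6, 61.3 and 70.2 CPM in input (2.14 ± 0.28, adjusted p = 1.61e-06). For all 3 genes every neuron library was above every input library. Smaller changes were fitted for Sv2a, a vesicle membrane protein (1.01 ± 0.24), Nsf, the ATPase that takes SNARE complexes apart (1.08 ± 0.24), and Syt1, the calcium sensor of release (1.27 ± 0.35). Syt1 was at 1.05 without neurons 3 and then did not pass. Syn2, Sv2b, Rims1, Rph3a, Pclo and Syngr1 did not pass the test.

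On the receiving side, 10 of 14 tested genes of the postsynaptic density rose and none fell, with a median of 1.42. Shank1, a scaffold of the density, was at 137, 195, 15.1 and 92.8 CPM in neurons, against 13.05, 19.99, 13.3 and 26.4 CPM in input (2.62 ± 0.45, adjusted p = 7.47e-05). Neurons 4, with 3 counts, lay inside the range of the input, and the other neuron libraries lay above it. Nrgn, a calmodulin-binding protein of dendritic spines, was at 376, 600.2, 287 and 584 CPM in neurons, against 118, 209.9, 123 and 207 CPM in input (1.51 ± 0.31, adjusted p = 5.93e-04), with no overlap. The kinase Camk2a rose by 1.38 ± 0.34 and the scaffold Dlgap1 by 0.97 ± 0.31. Psd3, an exchange factor of the density, was at 290.4, 275, 277 and 92.8 CPM in neurons, against 85.6, 93.3, 71.5 and 90.9 CPM in input (1.43 ± 0.30, adjusted p = 6.90e-04). Its groups overlapped through neurons 5, which lay just below input 3. Without neurons 3, Camk2a and Dlgap1 lost their call, at 1.05 and 0.63, and Dlgap1 also without input 2 (0.94) and without input 4 (0.83).

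Transmitter receptors rose in 7 of 16 tested members, with a median of 0.95 and none lower. Grin2b, a subunit of the NMDA receptor, was at 222, 325, 236 and 72.2 CPM in neurons, against 61.2, 63.3, 38.8 and 70.2 CPM in input (1.87 ± 0.34, adjusted p = 1.30e-04). Its groups did not overlap, although neurons 5 was just above the highest input library. The AMPA receptor subunit Gria1 had a fitted change of -0.44 ± 0.31 (adjusted p = 0.314) and the GABA-B receptor subunit Gabbr1 one of 0.25 ± 0.25 (adjusted p = 0.498), and the groups overlapped for both. Gria2, another AMPA receptor subunit, rose by 1.01 ± 0.32 and did not pass without neurons 2, neurons 3 or input 4 (0.85 to 0.90). Gria1 and Gabbr1 stood at 291 ± 47.04 and 509.8 ± 122 CPM in astrocyte libraries.

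Of 15 tested voltage-gated channel genes, 9 rose and 1 fell, with a median of 1.31. Scn8a, the sodium channel of the axon initial segment and nodes, was at 162, 168, 30.2 and 120.3 CPM in neurons, against 17.5, 36.6, 25.04 and 38 CPM in input (2.03 ± 0.39, adjusted p = 3.08e-04). Neurons 4, again the lowest, lay among the input libraries. Kcna2, a potassium channel of axons, was at 214, 275, 247 and 206 CPM in neurons, against 77.5, 83.3, 66.4 and 103 CPM in input (1.52 ± 0.29, adjusted p = 2.36e-04), with no overlap. Of the abundant members, Cacnb4, an auxiliary calcium channel subunit, had a fitted change of 1.31 ± 0.34, and Kcnd2, a potassium channel of dendrites, one of 0.29 ± 0.32. Kcna1, with which Kcna2 forms channels, went the other way at 51.3, 27.5, 5.03 and 13.8 CPM in neurons, against 61.2, 43.3, 50.1 and 49.6 CPM in input (-1.20 ± 0.44, adjusted p = 0.0443). The Kcna1 groups overlapped through neurons 2, and its call was lost in every fit without 1 library except the one without neurons 2, at -1.43 to -0.93, and with the replicate block (-1.20).

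Of 22 tested genes of the axon and the neuronal cytoskeleton, 14 rose and none fell, with a median of 1.34. Kif5c, a kinesin that carries cargo along axons, was at 624, 725, 503 and 516 CPM in neurons, against 73.4, 99.9, 56.2 and 124 CPM in input (2.74 ± 0.33, adjusted p = 4.33e-07). Map1b, a microtubule-associated protein of growing axons, was at 342, 875, 855 and 894 CPM in neurons, against 175, 187, 204 and 194 CPM in input (1.98 ± 0.33, adjusted p = 6.24e-05). All neuron libraries were above all input libraries for both, with neurons 2 the lowest for Map1b. Mapt, which encodes tau, rose by 1.08 ± 0.29 (adjusted p = 0.00639) and did not pass without neurons 3 (0.84). Basp1, a membrane protein of growth cones, had a fitted change of 0.70 ± 0.27 (adjusted p = 0.0604) with no overlap, and stood at 1576 ± 250.2 CPM in the microglia libraries.

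**Figure D2:**
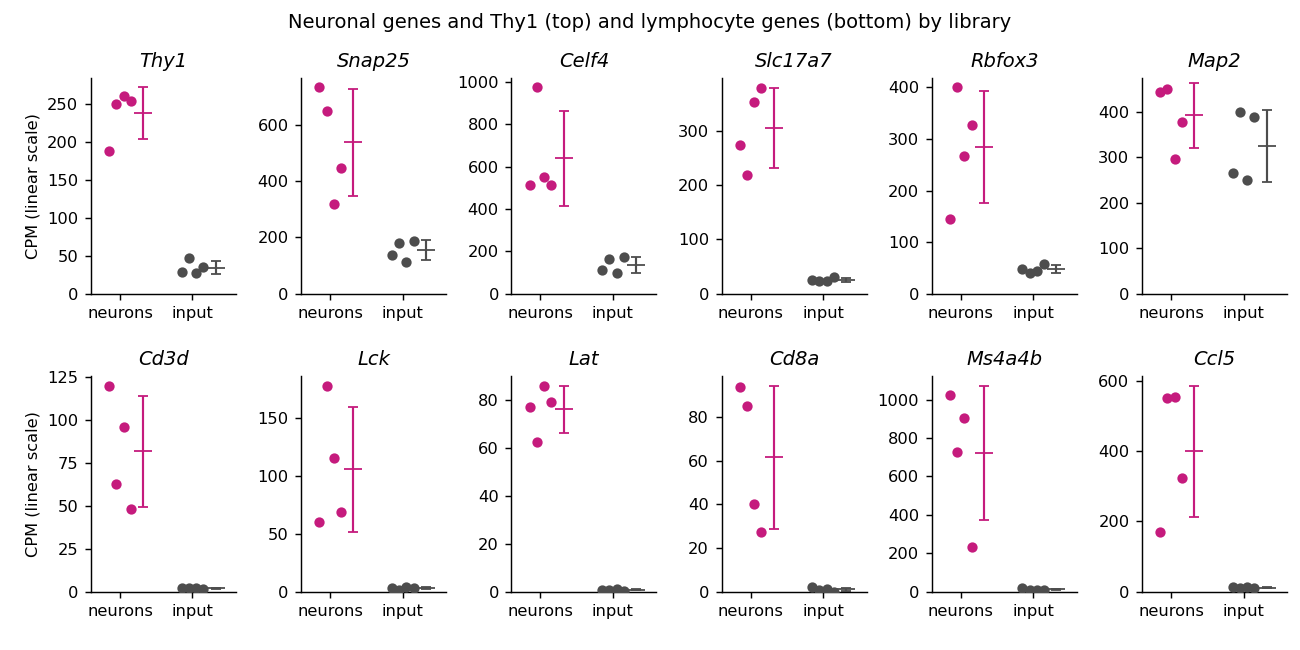
CPM (vertical axes, linear, from 0) of 6 genes of neurons or of the gate (top row) and 6 lymphocyte genes (bottom row) in the 4 neuron libraries (left, magenta) and the 4 input libraries (right, grey), in order of animals 2 to 5; points are libraries, horizontal bars means and error bars SD (n = 4). Groups overlap for Map2 alone among these 12 genes, and the input libraries of the lymphocyte genes lie close to 0.

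By transmitter and region, glutamatergic genes rose in 12 of 16 tested members of the excitatory forebrain list, with a median of 1.44. Slc17a7, whose promoter is given above, was at 273, 218, 352 and 378 CPM in neurons, against 25.3, 22.98, 23.5 and 31.4 CPM in input (3.56 ± 0.33, adjusted p = 3.38e-09). Tbr1 was at 42.7, 103, 101 and 58.4 CPM in neurons, against 10.6, 13.99, 3.58 and 4.54 CPM in input (3.22 ± 0.47, adjusted p = 9.37e-06). Every neuron library lay above every input library for both genes. Rorb, a nuclear receptor of cortical layer 4 that astrocytes also express, fell to 59.8, 30.01, 50.3 and 24.1 CPM in neurons, against 61.2, 103, 61.3 and 86.7 CPM in input (-1.06 ± 0.39, adjusted p = 0.0468). Its call was lost in 6 of 8 fits without 1 library, in all but those without neurons 2 or neurons 4, at -1.17 to -0.88, and with the replicate block (-1.05). It stood at 166 ± 36.1 CPM in astrocyte libraries. Mef2c, a transcription factor of neurons and microglia, had a fitted change of -0.43 ± 0.27 (adjusted p = 0.25) and stood at 1212 ± 166 CPM in microglia libraries. Lmo4, a transcriptional cofactor of cortical neurons, averaged 317 ± 63.5 CPM in neurons and 327 ± 46.4 CPM in input, and did not pass.

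Inhibitory neuron genes were mixed. Of 14 tested, 3 rose, 2 fell and 9 did not pass, with a median of 0.39, where 11.2% of all genes tested rose and 13.7% fell. Slc32a1, the vesicular transporter of GABA and glycine, was at 154, 183, 151 and 182 CPM in neurons, against 44.9, 33.3, 24.5 and 28.5 CPM in input (2.36 ± 0.33, adjusted p = 3.91e-06), with no overlap. Reln, a secreted protein of interneurons, Cajal-Retzius cells and mitral cells, was at 51.3, 425, 45.3 and 189 CPM in neurons, against 34.3, 19.7, 21.97 and 14.9 CPM in input (3.08 ± 0.51, adjusted p = 5.60e-05). It did not overlap, and neurons 3 lay far above neurons 2 and 4. Pvalb, a calcium-binding protein of fast-spiking interneurons and Purkinje cells, rose by 1.36 ± 0.42 and lost its call without neurons 3, neurons 4, input 2 or input 4 (1.04 to 1.33), and with the replicate block (1.33). The GABA-making enzyme Gad1 was at 162, 155, 186 and 68.8 CPM in neurons, against 97.9, 93.3, 51.1 and 82.6 CPM in input (0.79 ± 0.31, adjusted p = 0.0573), and passed the test without neurons 5 (1.03). Npy, a peptide of a class of interneurons, fell to 34.2, 25.01, 30.2 and 13.8 CPM in neurons, against 89.7, 109.9, 81.8 and 99.1 CPM in input (-1.97 ± 0.37, adjusted p = 2.34e-04), with all neuron libraries below all input libraries. Erbb4, a receptor of interneurons, fell by 1.48 (adjusted p = 0.034) on 3, 4, 1 and 3 counts in neurons, and lost its call in every fit without 1 library except the one without neurons 2, at -1.56 to -1.30, and with the replicate block (-1.47).

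Striatal projection neuron genes rose in 5 of 7 tested members, with a median of 1.68. Adora2a, the adenosine receptor of the indirect pathway, was at 103, 85.03, 70.4 and 41.3 CPM in neurons, against 6.12, 7.66, 7.15 and 4.54 CPM in input (3.48 ± 0.47, adjusted p = 2.22e-06). Every neuron library lay above every input library. Ppp1r1b, the phosphatase inhibitor DARPP-32, fell by 1.23 (adjusted p = 0.00602), at 76.9, 82.5, 40.2 and 92.8 CPM in neurons, against 167, 133, 194 and 207 CPM in input. Of the striatal list, 9 of the 16 matched genes had too few counts to be tested, with 117 counts in neurons and 366 in the input.

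Of 11 tested cerebellar genes, 3 rose and 1 fell, with a median of 0.58, beside 11.2% and 13.7% of all genes tested. Cbln1, the synaptic organiser released by granule cells, was at 25.6, 153, 141 and 103 CPM in neurons, against 34.7, 26.98, 21.5 and 45.4 CPM in input (1.80 ± 0.37, adjusted p = 5.65e-04), with neurons 2 inside the input range. Zic1, a transcription factor of granule cells, was at 564, 725, 267 and 516 CPM in neurons, against 379, 333, 317 and 359 CPM in input, and did not pass (0.58 ± 0.28, adjusted p = 0.123), although it did without neurons 4 (0.79). Etv1, also of granule cells, fell by 1.19 (adjusted p = 0.00526). Itpr1, the calcium release channel of Purkinje cells, rose by 0.87 ± 0.29 and did not pass without neurons 3, input 2, input 3 or input 4 (0.68 to 0.88).

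Genes of immature neurons had a median of 0.00, with 3 of 12 higher and 1 lower, beside 11.2% and 13.7% of all genes tested. The tubulin Tubb2b rose by 2.79 ± 0.37, at 175 ± 73.7 CPM in neurons and 25.2 ± 5.05 CPM in input, and stood at 881 ± 471 CPM in astrocyte libraries. Tubb2a rose by 1.04 ± 0.27 and stood at 1203 ± 324 CPM in astrocyte libraries. Nrep, a small protein of regenerating and developing neurons, rose by 1.13 ± 0.23. Dcx, the microtubule protein of migrating neuroblasts, was at 34.2, 47.5, 50.3 and 30.9 CPM in neurons, against 69.3, 63.3, 76.6 and 61.96 CPM in input (-0.71 ± 0.38, adjusted p = 0.176). Sox11, a transcription factor of newborn neurons, was at 85.4, 275, 156 and 172 CPM in neurons, against 298, 293, 378 and 306 CPM in input (-0.82 ± 0.32, adjusted p = 0.0604), and passed the test without neurons 3 (-1.16). Both lay lower in every neuron library than in every input library, without passing the test. Cd24a, a surface protein of neuroblasts and lymphocytes, fell by 1.56 (adjusted p = 0.00498).

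Of 10 tested neuropeptide and granin genes, 8 rose and 2 fell, with a median of 1.95. The other 13 of the 23 matched genes, among them Sst, Vip and Tac1, had too few counts to be tested. They held 213 counts in neurons and 1643 in the input, from pooled totals of 1000235 and 8958105 counts, so that the list as a whole is not described by its tested members. Chgb was at 273, 375, 111 and 2509.5 CPM in neurons, against 33.03, 30.6, 34.7 and 57.8 CPM in input (4.41 ± 0.60, adjusted p = 2.61e-06). Neurons 5 stood far above the others, and without it the fitted change was 2.72, still past the threshold. Scg2, a granin of the same vesicles, rose by 2.16 ± 0.35 (adjusted p = 3.20e-05). Chga, another granin, had 6, 9, 0 and 25 counts in neurons and 16, 32, 13 and 57 counts in input; it rose by 1.73 ± 0.62 and did not pass without neurons 2, neurons 5, input 2, input 3 or input 4 (0.84 without neurons 5), or with the replicate block (1.48). Chgb, Scg2 and Chga are known from pituitary cells too: the pituitary list summed to 1324, 630.2, 1409 and 80876 CPM in neurons, against 134, 119, 142 and 3282 CPM in input, highest in neurons 5 and input 5, and its part in these changes was not tested. Penk, the precursor of enkephalins, was at 444, 425, 302 and 141 CPM in neurons, against 73.4, 39.97, 45.5 and 66.1 CPM in input, with no overlap. Scg3 fell by 0.84 (adjusted p = 0.0306), lost its call without neurons 2, neurons 3, input 3 or input 5 (at -0.79 to -0.67), and stood at 876 ± 140.4 CPM in astrocyte libraries. Of 10 genes of monoamine and acetylcholine neurons, Ddc alone was tested; it fell by 1.24 (adjusted p = 0.0253), and lost its call without neurons 3, input 2, input 3 or input 4 (-1.26 to -0.84) and with the replicate block (-1.20). The other 9 held 8 counts in neurons and 93 in the input.

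In a test against a 2-fold change, 33 neuronal genes rose in place of 95. Of the genes named above, Snap25, Syt1, Sv2a, Nsf, Nrgn, Camk2a, Psd3, Dlgap1, Gria2, Cacnb4, Kcna2, Mapt, Pvalb, Cbln1, Itpr1, Nrep, Tubb2a and Chga no longer passed as higher in that test, and Kcna1, Rorb, Erbb4, Ppp1r1b, Etv1, Cd24a, Scg3 and Ddc no longer as lower. Under RLE scaling Kcna1, Rorb, Erbb4, Scg3 and Ddc no longer passed, at -1.05, -0.91, -1.32, -0.68 and -1.08. After all libraries had been thinned to the depth of the shallowest one, Camk2a, Itpr1, Ppp1r1b, Cd24a, Rorb and Scg3 no longer passed, at 1.04, 0.84, -1.07, -0.96, -0.61 and -0.44. Gad1 and Basp1, which missed the threshold under TMM, passed it under RLE scaling at 0.94 and 0.86.

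**Figure D3:**
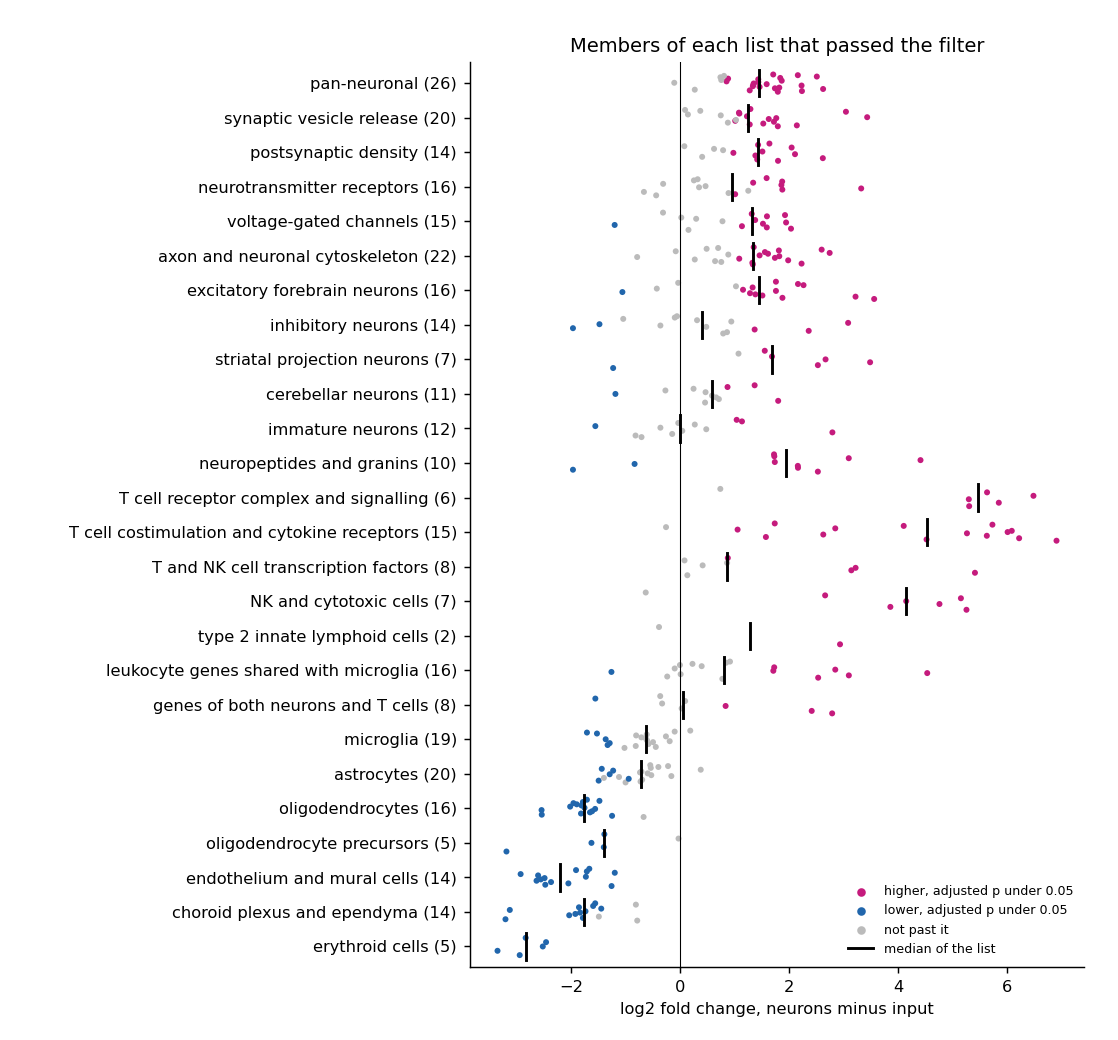
Fitted log2 fold change, neurons minus input (horizontal axis), of the members that passed the filter on low counts (number in brackets), for lists with more than 1 such member; each point is a gene, magenta where it was higher and blue where it was lower in neurons at an adjusted p under 0.05, grey otherwise, and the black bar is the median of the list. The lists of neurons shown have medians from 0 to 1.95, the 6 tested of 21 T cell receptor genes one of 5.47 and erythroid genes one of -2.84.

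Of the T cell receptor complex and its signalling, 6 of 21 genes had enough counts to be tested, and 5 of these rose, with a median of 5.47. Lat (ENSMUSG00000030742, chromosome 7 from 126363824 to 126369570, minus strand) was at 76.9, 62.5, 85.5 and 79.1 CPM in neurons, against 0.816, 0.666, 1.02 and 0.413 CPM in input (6.48 ± 0.61, adjusted p = 5.35e-09). The coreceptor chain Cd8a was at 93.97, 85.03, 40.2 and 27.5 CPM in neurons, against 2.04, 0.666, 1.02 and 0 CPM in input (5.84 ± 0.62, adjusted p = 3.88e-08). Every neuron library lay above every input library for both. For Cd8a this is no result, since it was named by the rule for the largest increases, which takes only genes without overlap. The same rule also took Lat. Cd3d and the kinase Lck rose by 5.30 ± 0.56 and 5.29 ± 0.46. Fyb, an adaptor of T cells that microglia also express, had a fitted change of 0.74 ± 0.32 (adjusted p = 0.0885), passed the test without neurons 5 (1.001), and stood at 313 ± 58.4 CPM in microglia libraries.

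Most of the complex was counted too rarely to test. The 15 untested genes held 268 counts in neurons and 122 in the input, where the pooled library totals were 1000235 and 8958105 counts. The second coreceptor chain Cd8b1 had 12, 18, 8 and 1 counts in neurons, against 2, 3, 1 and 2 counts in input, and Cd4 had 4, 2, 0 and 1 counts in neurons, against 6, 1, 0 and 2 counts in input. Cd3e had 0, 6, 12 and 1 counts in neurons, against 1, 2, 2 and 1 counts in input, and Cd3g had 0, 5, 8 and 3 counts in neurons, against 0, 0, 1 and 0 counts in input. Cd8b1 was thus counted in all 4 neuron libraries, and Cd4, Cd3e and Cd3g in 3 of them each. Foxp3, the factor of regulatory T cells, had 0 counts in both groups, which allows up to 3.00 CPM over the neuron libraries and up to 0.335 CPM over the input (3 counts of the pooled totals, counting error only).

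Costimulation molecules, cytokine receptors and surface proteins of T cells rose in 14 of 15 tested members, with a median of 4.52. Ms4a4b (ENSMUSG00000056290, chromosome 19 from 11443553 to 11463549, plus strand) was at 1025, 725, 906 and 234 CPM in neurons, against 17.1, 6.66, 10.2 and 7.85 CPM in input (6.08 ± 0.46, adjusted p = 6.30e-11). Cxcr6, a chemokine receptor of T cells resident in tissue, was at 325, 400.1, 654 and 151 CPM in neurons, against 8.16, 7.33, 9.71 and 3.3 CPM in input (5.73 ± 0.44, adjusted p = 1.02e-10). Il2rb, a receptor chain for interleukins 2 and 15, was at 359, 375, 397 and 172 CPM in neurons, against 9.38, 5.66, 6.64 and 4.13 CPM in input (5.63 ± 0.42, adjusted p = 6.27e-11). Neurons 5 was the lowest neuron library for all 3 genes and still above every input library. All 3 were also among the largest increases taken by rule, for which this lack of overlap was a condition. Cd27, a costimulatory receptor, had 9, 41, 9 and 8 counts in neurons, against 1, 2, 0 and 1 counts in input (6.90 ± 0.68). Tnfrsf18 and Ltb, both of the tumour necrosis factor system, rose by 6.22 ± 0.56 and 6.01 ± 0.58. Il7r, the receptor for interleukin 7, rose by 1.57 ± 0.37, and stood at 62.7 ± 4.03 CPM in microglia libraries. S1pr1 did not pass the test.

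Genes of NK and cytotoxic cells rose in 6 of 7 tested members, with a median of 4.15. Ccl5, a chemokine of cytotoxic T and NK cells, was at 171, 550.2, 553 and 323 CPM in neurons, against 13.05, 10.3, 12.3 and 9.91 CPM in input (5.15 ± 0.36, adjusted p = 2.67e-11). Nkg7, a granule protein, was at 59.8, 75.03, 116 and 65.3 CPM in neurons, against 1.63, 1.33, 2.55 and 2.48 CPM in input (5.25 ± 0.52, adjusted p = 1.06e-08). The granzyme Gzma was at 42.7, 130, 20.1 and 75.6 CPM in neurons, against 6.93, 2.33, 7.15 and 3.72 CPM in input (3.86 ± 0.52, adjusted p = 2.61e-06). Groups did not overlap in any of them, and Gzma was lowest in neurons 4 and Ccl5 in neurons 2. Perforin, Prf1, rose by 4.76 ± 0.64 and the receptor Klrd1 by 4.15 ± 0.52. The NK cell receptor Ncr1 had 1, 8, 0 and 1 counts in neurons, against 0, 2, 1 and 0 counts in input, too few to test. Tyrobp, an adaptor of NK cells and microglia, had a fitted change of -0.63 ± 0.34 (adjusted p = 0.18) and stood at 928 ± 365 CPM in microglia libraries.

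Transcription factors of T and NK cells rose in 4 of 8 tested members, with a median of 0.87. Tbx21, the factor of type 1 T cells and NK cells, was at 59.8, 60.02, 50.3 and 72.2 CPM in neurons, against 2.04, 1.67, 1.02 and 0.413 CPM in input (5.41 ± 0.54, adjusted p = 1.41e-08). Eomes, of cytotoxic cells, was at 59.8, 92.5, 40.2 and 34.4 CPM in neurons, against 8.56, 7.99, 4.6 and 4.54 CPM in input (3.14 ± 0.45, adjusted p = 5.53e-06). Both are also known from mitral and tufted cells of the olfactory bulb, and their counts cannot be assigned to one kind of cell. Cdhr1, a protocadherin of mitral and tufted cells that is in none of the lists, was at 128, 32.5, 45.3 and 44.7 CPM in neurons, against 2.04, 3, 3.58 and 2.07 CPM in input (4.33 ± 0.54, adjusted p = 6.35e-07). Tbr1 and Reln, given above, are known from mitral cells too. Runx3, of cytotoxic T cells, rose by 3.22 ± 0.53. Id2, an inhibitor of transcription factors that astrocytes also express, averaged 822 ± 179.7 CPM in neurons and 777 ± 149 CPM in input, and did not pass. Gata3, which had too few counts over the series to be tested, held 2, 34, 22 and 15 counts in neurons, against 5, 3, 10 and 6 counts in input. Ets1, also a gene of endothelium, rose by 0.87 ± 0.31 (adjusted p = 0.0387), and passed in the fits without neurons 3 or neurons 5 but in none of the other 6 without 1 library (0.51 without neurons 2), nor with the replicate block (0.86).

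B cell genes were mostly too rare to test. Bank1 alone of 11 matched genes was tested and did not pass, with a fitted change of -0.79 ± 0.65 (adjusted p = 0.4). The list summed to 34.2, 40.01, 80.5 and 41.3 CPM in neurons, against 59.9, 37.6, 87.9 and 39.7 CPM in input. Cd79a had 0 counts in both groups. Among genes of type 2 innate lymphoid cells, Il1rl1, the receptor for interleukin 33, rose by 2.93 ± 0.53 on 31 counts in neurons and 38 in the input, and Il4, Il5 and Il13 had 0 counts in neurons.

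**Figure D4:**
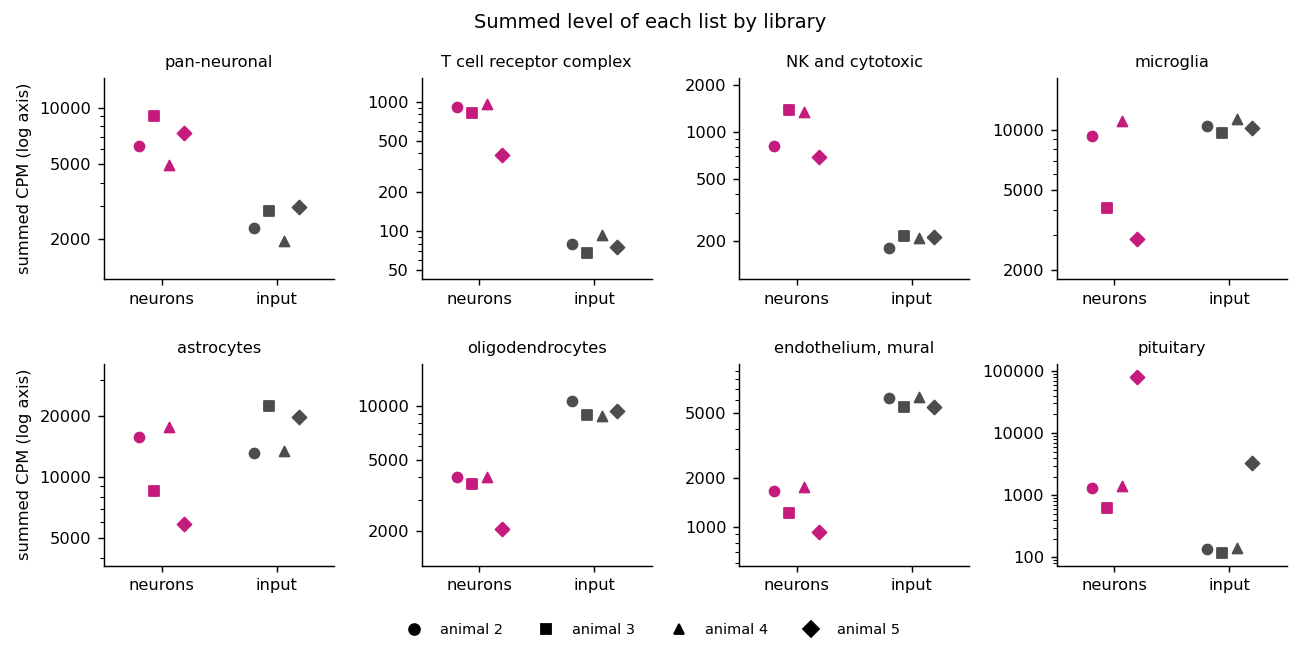
CPM summed over all matched genes of 8 lists (vertical axes, logarithmic) in the 4 neuron libraries (left, magenta) and the 4 input libraries (right, grey); each symbol shape is an animal. Pan-neuronal, T cell receptor and NK sums are higher in the neuron library of each animal, oligodendrocyte and endothelial sums lower, and microglia and astrocyte sums overlap between the groups.

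Genes that leukocytes share with microglia were split. Of 16 tested, 6 rose, 1 fell and 9 did not pass, with a median of 0.81. Ptprcap, which binds CD45 in lymphocytes, had 3, 12, 8 and 6 counts in neurons, against 3, 3, 4 and 1 counts in input (4.53 ± 0.64). Cd52, a small surface glycoprotein of leukocytes, was at 444, 500.2, 755 and 275 CPM in neurons, against 40.8, 76.6, 71.5 and 41.3 CPM in input (3.09 ± 0.33, adjusted p = 3.37e-08). Coro1a, an actin regulator of leukocytes, was at 222, 173, 257 and 113 CPM in neurons, against 27.3, 33.3, 42.4 and 26.4 CPM in input (2.53 ± 0.37, adjusted p = 7.37e-06). None of the 3 overlapped between groups. Ptprc, which encodes CD45 itself, was at 333, 143, 191 and 65.3 CPM in neurons, against 110.1, 63.3, 138 and 90.9 CPM in input, with overlap (0.77 ± 0.34, adjusted p = 0.0988), and passed the test without neurons 5 (1.06). It stood at 298 ± 55.02 CPM in microglia libraries. Arhgdib fell by 1.26 (adjusted p = 0.0265), and did not pass without neurons 4, neurons 5, input 3 or input 5 (-1.22 to -0.97), under RLE scaling (-1.11), after thinning (-1.41) or without animal 5 (-0.91).

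A further 8 genes are known from both neurons and T cells, Thy1 among them, and 3 rose, 1 fell and 4 did not pass. Bcl11b, a transcription factor of deep layer and striatal neurons and of all T cells, was at 256, 325, 352 and 148 CPM in neurons, against 61.2, 49.97, 45.99 and 45.4 CPM in input (2.41 ± 0.32, adjusted p = 1.69e-06), with no overlap. Satb1, a chromatin organiser of both, rose by 0.83 ± 0.30 and lost its call in every fit without 1 library except the one without neurons 4 (0.69 to 0.85) and with the replicate block (0.81). Foxp1, a transcription factor of striatal neurons and quiescent T cells, was at 231, 215, 297 and 234 CPM in neurons, against 298, 279.8, 347 and 302 CPM in input, and did not pass (-0.33 ± 0.28, adjusted p = 0.408). These data cannot assign the counts of such a gene to either kind of cell.

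Among the largest increases outside the neuronal and lymphocyte lists were genes of both kinds. Spn, which encodes the T cell sialoglycoprotein CD43, was at 42.7, 205, 161 and 65.3 CPM in neurons, against 4.49, 2, 5.11 and 2.07 CPM in input (5.18 ± 0.49). Dusp2, a phosphatase of activated lymphocytes, was at 42.7, 208, 206 and 99.7 CPM in neurons, against 6.93, 5.33, 9.2 and 2.48 CPM in input (4.60 ± 0.45). Nyap1, an adaptor of neuronal phosphoinositide signalling, was at 111, 145, 55.3 and 75.6 CPM in neurons, against 1.22, 2, 3.07 and 2.48 CPM in input (5.43 ± 0.52). The rule for named genes took these, and Clec2d, a ligand of an NK cell receptor that rose by 4.87 ± 0.60 on 1, 47, 3 and 21 counts in neurons. Rpl10, a ribosomal protein gene with near-identical copies, had 7, 3, 27 and 3 counts in neurons, against 1, 7, 2 and 3 counts in input, and Grcc10 had 18, 28, 6 and 2 counts in neurons, against 5, 12, 1 and 4 counts in input. The rule takes only genes whose groups do not overlap in CPM, so that the lack of overlap in these 6 genes is no result. The neuron libraries differed widely in Clec2d, Rpl10 and Grcc10. The lymphocyte genes Ly9 and Gimap3, chosen after their values were seen, rose by 5.29 ± 0.60 and 4.86 ± 0.66. Ntng1, an adhesion protein of thalamic and other projection neurons that was chosen likewise, rose by 2.18 ± 0.42. Lars2, the mitochondrial leucyl-tRNA synthetase, was at 333, 300.1, 252 and 756 CPM in neurons, against 19.2, 11.7, 16.4 and 8.26 CPM in input (4.90 ± 0.44).

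Mitochondrially encoded transcripts were abundant in every library. They took 20.8%, 21.3%, 18.5% and 14.3% of the counts in neurons 2 to 5, against 7.32%, 10.9%, 6.62% and 10.9% in input, and 7 of 8 tested members rose, with a median of 1.29. The other 5 of the 13 genes, mt-Co2, mt-Co3, mt-Atp6, mt-Atp8 and mt-Nd4l, held 0 counts in neurons and 3 in the input. These shares therefore come almost wholly from the 8 tested genes. mt-Nd1, a subunit of complex I, had 7200, 23000, 10000 and 12000 counts in neurons, against 43000, 79000, 29000 and 66000 in input, from libraries of unequal size (1.29 ± 0.35, adjusted p = 0.00755). mt-Co1, of complex IV, rose by 2.27 ± 0.36 (adjusted p = 2.71e-05). mt-Nd4 and mt-Cytb rose by 1.18 ± 0.35 and 1.16 ± 0.36; both lost their call without input 2 (1.09 and 1.02) or input 4 (1.01 and 1.01), and mt-Cytb also without neurons 3 (1.05). Respiratory chain genes of the nucleus rose in 23 of 73 tested members, with a median of 0.42. Cytosolic ribosomal protein genes rose in 38 of 57 tested members, with a median of 1.38. Rps21 rose by 1.66 ± 0.29. Ribosomal protein genes, Gapdh, the haemoglobin pair Hba-a1 and Hba-a2 and the class I genes H2-K1, H2-D1 and H2-Q7 have near-identical copies, so that counts could be split among them. The use of strand in counting is not given in the sources used here. Rtn1, a reticulon of neurons, rose by 2.35 ± 0.28, at 1538, 2501, 1157 and 2888 CPM in neurons, against 408, 399.7, 399 and 388 CPM in input.

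Class I presentation genes rose in 4 of 10 tested members, with a median of 1.01. H2-K1 was at 854, 1250.4, 1559.6 and 1031 CPM in neurons, against 391, 319.8, 337 and 277 CPM in input (1.83 ± 0.26, adjusted p = 6.04e-06), and H2-D1 rose by 1.56 ± 0.30. Outside the list, H2-Q7, a class Ib gene abundant in lymphocytes, was at 93.97, 238, 156 and 127 CPM in neurons, against 7.75, 5, 4.6 and 4.13 CPM in input (4.85 ± 0.45, adjusted p = 4.66e-09). All neuron libraries were above all input libraries in these 3 genes, which for H2-Q7 was a condition of being named. Lymphocyte genes rose in the same libraries, and the part of lymphocytes in these class I changes was not tested.

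Lists of vessels, blood, choroid plexus and oligodendrocytes were lower in neurons. All 14 tested genes of endothelium and mural cells fell, with a median of -2.21, and the list summed to 1666, 1215, 1751 and 928 CPM in neurons, against 6172, 5446, 6214 and 5394 CPM in input; of all genes tested, 13.7% fell. Flt1, a receptor of vascular endothelial growth factor, was at 256, 170.1, 332 and 165 CPM in neurons, against 1305, 1033, 1431 and 1280.5 CPM in input (-2.48 ± 0.38, adjusted p = 1.78e-05). Eng, a coreceptor of the endothelium, had 0, 4, 0 and 3 counts in neurons, against 140, 150, 130 and 130 counts in input. Of the other named decreases, the fitted change was -3.27 for Cp, a copper-carrying ferroxidase, -3.19 for Wwtr1, a coactivator of the Hippo pathway, -3.13 for Car14, a carbonic anhydrase, -3.10 for Lbp, which binds lipopolysaccharide, and -2.97 for Kif26a. Edn1, the precursor of endothelin, had 3 counts over the neuron libraries and 500 over the input, a ratio of pooled counts 18.6-fold lower, with an exact 95% interval from 6.33 to 90.5. Slc16a9, a carrier chosen after its values were seen, had no counts in neurons and 393 in input, and was at least 14.6-fold lower (floor of 3 counts over the neuron libraries). Neither the ratio nor the floor covers more than counting error.

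The 5 tested erythroid genes fell, with a median of -2.84. Hba-a2 had a fitted change of -3.35 ± 0.47. Hba-a1 was at 42.7, 45.02, 50.3 and 17.2 CPM in neurons, against 449, 217, 322 and 186 CPM in input (-2.95 ± 0.43, adjusted p = 8.29e-06). Of 14 tested genes of choroid plexus and ependyma, 11 fell, with a median of -1.76. Clic6, a channel protein of choroid plexus, was at 17.1, 12.5, 15.1 and 27.5 CPM in neurons, against 179, 89.9, 194 and 207 CPM in input (-3.21 ± 0.45, adjusted p = 5.21e-06). Ttr, the transthyretin that choroid plexus secretes, was at 7432, 2751, 2767 and 6532 CPM in neurons, against 9379, 3997, 8686 and 11566 CPM in input, and did not pass (-0.79 ± 0.44, adjusted p = 0.195). Of 16 tested oligodendrocyte genes, 15 fell, with a median of -1.77. Mbp, which encodes myelin basic protein, was lower in every neuron library without passing the test (-0.67 ± 0.32, adjusted p = 0.117). Of 5 tested genes of oligodendrocyte precursors, 4 fell.

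Microglia and astrocyte genes were present in the neuron libraries at levels that overlapped the input. The microglia list summed to 9337, 4081, 11083 and 2867 CPM in neurons, against 10427, 9634, 11379 and 10285 CPM in input, and 5 of 19 tested members fell. The astrocyte list summed to 15718, 8533, 17633 and 5899 CPM in neurons, against 13043, 22345, 13417 and 19676 CPM in input, and 5 of 20 fell. None of their members rose. Both sums were highest in neurons 2 and neurons 4, the shallowest libraries, and these held the lowest pan-neuronal sums; the part of these cells in the spread of neuronal genes was not tested. Cx3cr1, the fractalkine receptor of microglia, was at 2050.2, 850.3, 2415 and 584 CPM in neurons, against 3262, 2632, 3219 and 2809 CPM in input (-1.02 ± 0.40, adjusted p = 0.0558), and passed the test without neurons 2 (-1.23) or without neurons 4 (-1.40). Itgam, which encodes CD11b, was at 265, 168, 448 and 92.8 CPM in neurons, against 179, 227, 219.7 and 211 CPM in input (0.18 ± 0.41, adjusted p = 0.781); without neurons 4 its fitted change was -0.34. Slc1a2, which encodes EAAT2, was at 2221, 1100.4, 2415 and 722 CPM in neurons, against 1917, 4330.5, 2095 and 4544 CPM in input (-1.003 ± 0.39, adjusted p = 0.0574), and passed without neurons 2, neurons 4, input 2 or input 4 (-1.29 to -1.18). Slc1a2 and the astrocyte sum were higher in input 3 and input 5 than in input 2 and input 4.

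Set against the other sorted groups, neurons differed from the mean of microglia and astrocytes in 1498 genes that were higher (16.5%) and 1062 that were lower (11.7%), in the same fit. The neuron libraries are shared with the first comparison, so both are given side by side. Of the 163 neuronal genes, 140 were higher than in the other sorted cells, and none lower (edgeR; 1 at an unadjusted p under 0.05, and 0 by DESeq2), with a median of 2.92, beside 95 and 1.25 over input. Of the 39 lymphocyte genes, 31 were higher, 2 were lower (Tyrobp and S1pr1) and the median was 3.95, beside 30 and 3.86 over input. Slc17a7 was 4.73 ± 0.32 above the other sorted groups, and 3.56 ± 0.33 above input. Map2, which had not passed over input, was 1.84 ± 0.25 above the other sorted groups (adjusted p = 7.41e-07), and Gad1 2.96 ± 0.31 (adjusted p = 1.08e-08). Npy was 1.06 ± 0.43 (adjusted p = 0.0613), and Kcna1 3.36 ± 0.62 (adjusted p = 9.87e-05), positive here and negative over input. Lck was 4.76 ± 0.44 and Ms4a4b 4.51 ± 0.35. Some lists with most members lower in neurons than in input held genes higher in neurons than in the other sorted groups. Among oligodendrocyte genes 10 of 16 were higher and 1 was lower, among genes of choroid plexus and ependyma 9 of 14 were higher, and among genes of endothelium and mural cells 6 of 14, with none lower in either of these (edgeR; 0 also at an unadjusted p under 0.05 and by DESeq2).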

How the data were processed

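RNA was counted with a 3′ end method (QuantSeq with unique molecular identifiers, sequenced in 1 pool), per the labels' protocols. Per the submitters' processing notes the genome build was GRCm38.p6, and the tools included edgeR, STAR and featureCounts of Subread 1.6.2. The deposited values are read counts per gene, made by the authors after duplicates were removed, per the labels. All 28936 counts of 100 or more in the deposited table have 2 significant digits, so that each can be off by up to 5%. Neuron libraries held 116761 to 393199 counts and input libraries 1702665 to 2811080, so that genes of low level are measured less precisely in neurons; depth is the sum of protein-coding counts.

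The counts were normalised by TMM, filtered by filterByExpr and fitted in edgeR 4.0.16 (R 4.3.3, limma 3.58.1) with 1 mean per group over all 16 libraries, and contrasts were tested by the quasi-likelihood test with Benjamini-Hochberg adjustment over 9091 genes (threshold 0.05). Error terms of fitted changes are standard errors, and of levels SD over 4 libraries. DESeq2 1.42.0, other scalings, no filter, a fit of only the groups compared, a test against a 2-fold change, thinning, leaving out mitochondrially encoded genes, each library in turn or animal 5, and the animal as a block were tried. Scripts were tested on simulated data. Animals pair the groups by label; deviations of same-animal libraries correlated at 0.000822, 0.0472, 0.0357 and 0.0931 in animals 2 to 5. Libraries of a group carry different animal numbers in the labels, and p-values measure the spread between these libraries.

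The comparison and the 39 gene lists (725 members matched, 4 listed genes not matched) were chosen with earlier results of these data known. Genes named by rule were those of the sort, the markers Snap25, Celf4 and Slc17a7, the 4 most abundant of each list, members that went against their list, and, without overlap, the 10 largest increases of at least 50 CPM in all genes and outside lymphocyte and leukocyte lists, the 10 largest such decreases and the 8 most abundant increases. Predicted genes were left out of these, and some genes that the rule took are not reported here. Promoter windows are from RefSeq; 4 motifs were searched on both strands.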

Additional observations from a re-analysis of the deposited data

Results flagged for a closer look

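For 155 genes, 39 list sums and 3 library measures, each group of 4 libraries was searched for 1 library that stood apart from the rest by more than Dixon's 95% critical value for the gap over the range. Of 394 such groups, 35 held one, 20 in neurons and 15 in the input. The critical value stands for 1 in 20 of independent normal groups. These groups are not independent, and the genes were chosen from these same data, so that the count cannot be set against that rate.

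Neurons 5 gave 10 of them. Its level was high for the pituitary hormone genes Gh (65320 CPM), Prl (14090 CPM) and Cga (825 CPM), for the imprinted gene Dlk1 (5157 CPM), for Chgb (2510 CPM) and Lars2 (756 CPM), and for the pituitary list as a sum (80880 CPM). It was low for Psd3 (92.8 CPM), the actin-binding peptide Tmsb4x (1719 CPM) and the chemokine receptor Ccr2 (65.3 CPM). The input of the same animal was high for Gh (2313 CPM), Prl (252 CPM), Cga (128 CPM), Dlk1 (161 CPM), Chgb (57.8 CPM) and the pituitary sum (3282 CPM), and low for Cd24a (90.9 CPM), Ets1 (90.9 CPM) and Cd3d (1.24 CPM).

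Neurons 2 was low for Thy1 (188 CPM), Map1b (342 CPM) and the sum of type 2 innate lymphoid genes (111 CPM), and high for Cdhr1 (128 CPM). Neurons 3 was high for Celf4 (975 CPM), the postsynaptic density sum (3401 CPM) and the excitatory forebrain sum (3184 CPM). Neurons 4 was high for Pecam1 (60.4 CPM), Prf1 (60.4 CPM) and the B cell sum (80.5 CPM).

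Input 2 was high for Hbb-bs (2487 CPM) and low for the NK and cytotoxic sum (179.8 CPM). Input 3 was low for Nrep (213 CPM) and high for the sum of genes of both neurons and T cells (970.0 CPM). Input 4 was high for Sox11 (378 CPM) and Bank1 (34.7 CPM).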

How the results depend on the processing

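The settings did not test the same number of genes, so that their counts are not shares of one total. Genes numbered 9091 in the main fit, 16540 with no filter and by DESeq2, 3812 after thinning and 9161 without animal 5. With only the groups compared in the fit they numbered 10298 over input and 6955 over the other sorted groups. Over input, genes higher in neurons numbered 1020 in edgeR, and 1568 with no filter, 1692 with only both groups in the fit, 261 against a 2-fold change, 446 after thinning to 116761 counts a library and 1865 by DESeq2. Genes lower numbered 1244, and 168 against a 2-fold change, 305 after thinning and 683 without animal 5. Over the other sorted groups, higher genes numbered 1498, and 2400 with no filter, 956 with only those groups in the fit, 651 against a 2-fold change, 597 after thinning and 2558 by DESeq2, and lower genes numbered 1062, and 580 with only those groups in the fit, 106 against a 2-fold change, 360 after thinning and 525 without animal 5. Without 1 library the counts over input were 751 to 1093 higher and 799 to 1346 lower, and over the other sorted groups 1233 to 1815 higher and 671 to 1167 lower. With the replicate block, which pairs libraries of an animal, 811 were higher and 1093 lower over input (1375 and 928 over the other sorted groups); the named calls it ended stand beside their genes. The share of higher genes among calls over input was 45.1% under TMM, 58.5% under RLE scaling, 34.9% with library totals alone and 64.1% by DESeq2. The cause of these differences was not tested, beyond the fewer counts, samples or genes of a setting.

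The counts by kind of gene were recomputed after the data had been seen. Neuronal genes that rose numbered 95, and 33 against a 2-fold change, 48 after thinning, 112 by DESeq2 with no filter on low counts by edgeR, 85 without animal 5, and 65 (without neurons 3) to 98 without 1 library. Lymphocyte genes that rose numbered 30, and 26 against a 2-fold change, 6 after thinning, 64 with no filter, 56 by DESeq2, 40 without animal 5 and 29 to 42 without 1 library.

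Of 155 genes followed through the settings, 127 passed the test, 103 of them in every fit without 1 library. Of these calls 43 were lost against a 2-fold change, 7 under RLE scaling, 4 with library totals alone, 4 with no filter, 11 after thinning (100 genes fitted), 9 with the replicate block, 8 without animal 5 and 8 by DESeq2. Ets1 and Satb1 were among those lost with library totals alone, with no filter and after thinning, and Satb1 without animal 5. Gad1 and Fyb newly passed under RLE scaling, after thinning, without animal 5 and by DESeq2, Cx3cr1, Slc1a2 and Sox11 with library totals alone or with no filter, Ttr with no filter, and Zic1 with only both groups in the fit. In the settings run, direction turned only for Itgam, at -0.34 without neurons 4 to 0.46 without neurons 5 (0.18 with all libraries), and Cga, at -0.97 without neurons 5 to 5.76 without input 5 (2.73 with all). Depth limits the neuron libraries: 3 counts over the group correspond to 3.00 CPM, against 0.335 CPM in the input.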

Other observations

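Immediate early genes, which neurons and many other cells switch on within minutes of a stimulus, rose in 5 of 17 tested members and fell in 1, with a median log2 fold change of 0.92. Of all genes tested 11.2% rose and 13.7% fell. Junb, a subunit of the AP-1 factor, was at 436, 600.2, 503 and 997 CPM in neurons, against 130.5, 109.9, 102 and 136 CPM in input (2.42 ± 0.34, adjusted p = 5.45e-06). Btg2, an antiproliferative gene, was at 299, 300.1, 443 and 756 CPM in neurons, against 122, 109.9, 138 and 140.4 CPM in input (1.83 ± 0.32, adjusted p = 1.16e-04). Neither gene overlapped between the groups, and neurons 5 was highest in both. Junb and Btg2 stood at 1462 ± 299 and 1039 ± 373 CPM in the microglia libraries (SD, n = 4). Arc, an early gene of excitatory synapses with too few counts to be tested, had 0, 19, 0 and 14 counts in neurons, against 29, 19, 29 and 26 counts in input. Npas4, which activity induces in neurons, was counted 2 times in neurons and 2 times in the input. Klf4, also of endothelium, fell by 1.55 (adjusted p = 0.00498).

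Of 15 genes of cell division, 4 were tested and 2 rose. Birc5, an inhibitor of apoptosis made in mitosis, was at 51.3, 35.01, 65.4 and 51.6 CPM in neurons, against 9.38, 19.3, 11.2 and 19.4 CPM in input (1.72 ± 0.48, adjusted p = 0.00876). Hmgb2, a chromatin protein, was at 25.6, 87.5, 35.2 and 17.2 CPM in neurons, against 2.85, 7.33, 5.11 and 9.91 CPM in input (2.81 ± 0.55, adjusted p = 3.16e-04). Neither overlapped. Mki67, the proliferation antigen Ki-67, had 0 counts in neurons, which allows up to 3.00 CPM over the group (3 counts of the pooled total), and 28 counts in the input. Heat shock and chaperone genes had a median of 0.08, with 1 of 13 higher and 1 lower.

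Of 11 tested genes of neutrophils and monocytes, 2 rose and 2 fell, beside 11.2% and 13.7% of all genes tested. The monocyte and memory T cell gene Ly6c2 was at 179, 123, 216 and 75.6 CPM in neurons, against 15.5, 21.7, 28.6 and 6.61 CPM in input (2.99 ± 0.51, adjusted p = 7.66e-05), with no overlap. S100a8, a calcium-binding protein of neutrophils, fell by 1.30 (adjusted p = 0.0383) and did not pass with the replicate block (-1.20), under RLE scaling (-1.14), after thinning (-0.86), or without neurons 3, neurons 5, input 3 or input 4 (-1.18 to -1.04). Of 5 tested genes of fibroblasts 3 fell, and of 8 tested genes of macrophages at the borders of the brain 2 fell.

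The 4 tested genes of the pituitary list rose, with sizes that differed with the libraries of animal 5, and DESeq2 gave no adjusted p for Gh, Prl or Cga. The list sum, given above, was higher in the neuron library of each of the 4 animals. Without neurons 5 the fitted change of Gh, growth hormone, was 0.45 (in place of 4.71), of Prl, prolactin, 0.995 (in place of 5.59), and of Cga, the common hormone chain, -0.97 (in place of 2.73), and none of these passed. Dlk1, an imprinted gene chosen after its values were seen, was at 0.26 without neurons 5 (in place of 4.66). Without input 5, Gh was at 7.47 and Cga at 5.76, and without all libraries of animal 5 Gh was at 3.23, Prl at 3.14 and Dlk1 at 1.88, all past the threshold, and Cga, no longer past the threshold, at 2.12.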
